A study of Mus musculus with 8 samples.

Results

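Heat shock proteins and chaperonins are the machinery with which a cell folds, holds and refolds its proteins. The genes described here are those whose symbol begins with Hspa, Hspb and a digit, Hsp90 or Dnaj, the 7 genes named Cct2 to Cct8 in the table, and Hspd1, Hspe1 and Hsph1, with pseudogene symbols left out. This rule takes 68 of the 16109 genes listed, and it used no measured value. They comprise 10 HSP70 genes, 3 HSP110 genes, 3 HSP90 genes, 2 genes of the mitochondrial chaperonin, 7 subunits of the cytosolic chaperonin, 4 small heat shock proteins and 39 J proteins (Dnaj genes). They were measured by RNA sequencing of polyadenylated RNA in mouse retina at postnatal day 5, when the vessels of the retina are growing, in a study comparing wild-type mice with mice deficient in complement component C3. All mice carried the label C57BL/6, and each genotype, labelled WT or C3 KO, had 4 libraries. Hyaloid vessels had been removed at dissection. The labels used here do not describe the C3 allele, the sex of the animals or whether a library was 1 animal or a pool, so p-values measure the spread between these libraries.

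The labels could not be taken at face value. C3 counts were 2.59 ± 0.642 CPM (reads scaled to the library size, mean ± SD, n = 4) in the libraries labelled WT and 84.5 ± 3.49 CPM in those labelled C3 KO, a log2 difference of 5.04 in the direction opposite to the label. Every direction below therefore refers to the label alone. Summed markers of retinal neurons ran from 4920 to 5245 CPM under the label WT and from 4471 to 4911 CPM under C3 KO. Retinal RNA was thus present throughout, though these markers also differed between the labels. Of 9 tested, 3 were called higher and 3 lower under C3 KO, with log2 differences from -0.68 to 0.43. Markers of pigment epithelium and melanocytes ran from 308 to 343 CPM and from 435 to 462 CPM respectively, with 9 of 13 higher under C3 KO. Fibroblast markers ran from 151 to 192 CPM and from 201 to 236 CPM (3 of 5 higher), microglial markers from 110 to 144 CPM and from 145 to 176 CPM (2 of 8 higher), and red cell markers from 28.5 to 51.2 CPM and from 18.1 to 23.2 CPM (5 of 5 lower). The mean of 4 Y-linked genes lay between 74.8 and 88.2 CPM in the C3 KO libraries and at 75.8 CPM in WT replicate 3, but between 0.448 and 5.05 CPM in the other WT libraries. Xist, transcribed from the inactive X chromosome, was 2441, 2369, 295 and 2195 CPM under WT and 1.48 to 2.65 CPM under C3 KO. WT replicate 3 thus held many reads of both kinds. WT replicates 2 and 4 also held Y-linked reads beside their high Xist: the Y-linked gene Ddx3y had 10, 128, 2118 and 73 reads in WT replicates 1 to 4. The part of these differences in the results below was not tested, except where a value without a library or with the Y-linked level as a covariate is given. In whole tissue, fewer cells of a type and less RNA per cell cannot be told apart. Libraries held 16503564 to 19608824 reads assigned to genes, and the chaperone genes took 0.993% to 1.04% of them.

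HSP70 proteins bind short stretches of unfolded protein in a cycle driven by ATP. J proteins deliver the client and trigger ATP hydrolysis, and HSP110 proteins exchange the nucleotide so that the client is released. HSP90 acts later, on nearly folded clients such as kinases and steroid receptors. The chaperonins are barrels that enclose a whole protein: CCT folds actin and tubulin in the cytosol, and HSP60 with its lid HSP10 folds proteins in mitochondria. Small heat shock proteins hold unfolded protein without using ATP. Each compartment has its own set, and many of the genes carry control sequences for the heat shock factor, or, for those of the endoplasmic reticulum (ER), for the ER stress factors. In retina, photoreceptors make opsin in the ER in large amounts, and developing neurons use CCT for their tubulin.

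Promoter windows from RefSeq (build GRCm38.p6, 250 bases before to 50 bases after each annotated start) were available for 56 of the 68 genes. The other 12, among them Hspa8, Hsp90aa1 and Hsp90ab1, were not searched. A strict heat shock element of 3 alternating units, GAANNTTCNNGAA on either strand, lay in the windows of 4 of these 56 genes (Hspd1, Hspe1, Hsph1 and Dnajb6). This was 7.14% of them, beside 0.662% of all 27025 genes with windows. Hspd1 and Hspe1 are both counted for the same 2 elements in their shared region. The windows of Hspa1a, Hspa1b, Hspb1, Dnaja1, Dnajb1, Dnajb4 and Hspa4l, also among the heat-inducible genes listed below, held no such match. The ER stress element, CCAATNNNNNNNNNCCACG on either strand, lay in the windows of 3 of the 56 genes (Hspa5, Hsp90b1 and Dnajc3). This was 5.36%, beside 0.137% of all genes with windows. A match describes these letters only. Hspd1 (HSP60) and Hspe1 (HSP10) are neighbours transcribed in opposite directions, and the 215 bases between the Hspe1 start and the Hspd1 start upstream of it hold 2 overlapping heat shock elements, which start 89 and 84 bases before the Hspe1 start (chr1:55087933-55088147, + strand). A further annotated Hspd1 start lies beyond the Hspe1 start. The match of Hsph1 starts 36 or 15 bases after its 2 annotated starts and is shown as 30 bases (chr5:149636287-149636316, - strand). The ER stress elements start 65 bases before the start of Hspa5 (chr2:34771840-34772089, + strand), 212 and 107 bases before that of Hsp90b1 (chr10:86705445-86705694, - strand) and 105 bases before that of Dnajc3 (chr14:118937682-118937931, + strand). They are shown because they are the known kinds of binding site for the heat shock factor and the ER stress factors. The sequences are written 5′ to 3′ on the strand of the gene, that of Hspe1 for the shared region, with the matched elements in capitals.
Hspd1-Hspe1: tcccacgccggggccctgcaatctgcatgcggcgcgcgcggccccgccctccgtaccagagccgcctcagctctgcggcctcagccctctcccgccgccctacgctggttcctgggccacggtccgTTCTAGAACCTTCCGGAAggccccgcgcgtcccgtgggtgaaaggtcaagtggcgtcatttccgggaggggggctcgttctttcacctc
Hsph1: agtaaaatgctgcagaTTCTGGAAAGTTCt
Hspa5: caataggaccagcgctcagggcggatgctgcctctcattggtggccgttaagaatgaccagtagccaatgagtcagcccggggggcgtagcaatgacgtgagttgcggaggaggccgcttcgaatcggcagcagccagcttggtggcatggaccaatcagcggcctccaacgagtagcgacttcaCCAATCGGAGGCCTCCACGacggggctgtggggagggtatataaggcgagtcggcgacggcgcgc
Hsp90b1: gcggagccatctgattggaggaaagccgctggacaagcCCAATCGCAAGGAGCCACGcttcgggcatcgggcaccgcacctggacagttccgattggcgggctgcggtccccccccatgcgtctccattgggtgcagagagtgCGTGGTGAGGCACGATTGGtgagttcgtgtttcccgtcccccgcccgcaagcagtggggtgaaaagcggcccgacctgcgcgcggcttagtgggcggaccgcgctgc
Dnajc3: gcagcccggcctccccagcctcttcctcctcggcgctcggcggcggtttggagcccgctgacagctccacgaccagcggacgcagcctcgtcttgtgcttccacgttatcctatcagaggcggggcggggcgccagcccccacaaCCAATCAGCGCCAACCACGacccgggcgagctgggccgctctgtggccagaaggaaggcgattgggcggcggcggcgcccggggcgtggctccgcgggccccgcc

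All 68 genes were expressed well enough to be tested, the lowest single count being 33 reads. Levels per gene length, as RPKM (reads scaled by gene length and library size) averaged over the 8 libraries, spread widely in the plot of levels by class. Hsp90ab1, the constitutive cytosolic HSP90, was the highest at 461 RPKM and ranked 32 among all genes listed. Another 9 genes reached 100 RPKM: Hsp90b1 (181), the ER HSP90, Cct6a (175), Hspa5 (153), the ER HSP70 also called BiP, Cct2 (151), Hsp90aa1 (136), Cct8 (135), Cct7 (131), Cct5 (113) and Hspa8 (103), the constitutive cytosolic HSP70. A further 10 genes stayed below 5 RPKM, among them the stress-inducible HSP70 genes Hspa1a (1.16) and Hspa1b (0.983) and the small heat shock proteins Hspb8 and Hspb1 (4.64). Hspa1a, Hspa1b and Hspb1, which heat is known to induce from low levels, were thus near the bottom in both groups, while Hsp90aa1, also inducible, was near the top.

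**Figure D1:**
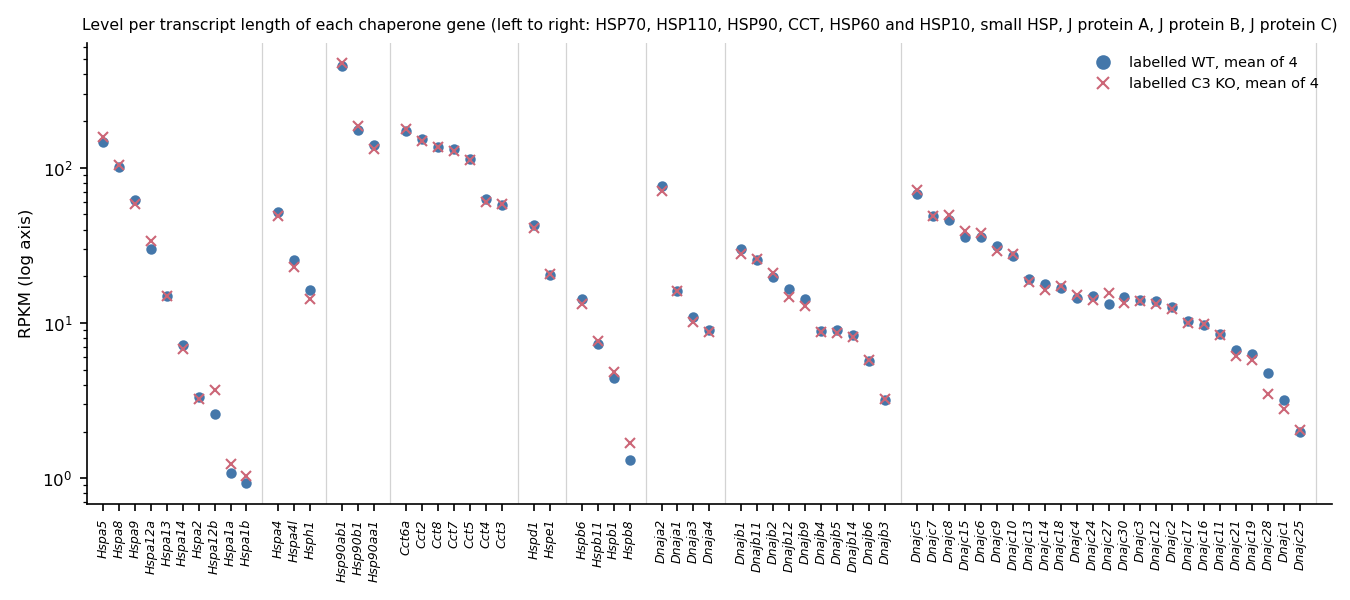
Mean RPKM (log axis) of each of the 68 genes in the 4 libraries labelled WT (circles) and the 4 labelled C3 KO (crosses), ordered by chaperone class. Hsp90ab1 stands highest and Hspa1b lowest, at 461 and 0.983 RPKM over all libraries, and the circle and cross of most genes nearly coincide.

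Between the labelled groups most chaperone genes differed little. By edgeR's quasi-likelihood test with Benjamini-Hochberg adjustment over all 15850 genes tested, 5 of 68 passed an adjusted p of 0.05 (7.35%), beside 14.3% of all genes tested. Under the label C3 KO, 3 were higher (Hspa12a, Hspa12b and Dnajc27), beside 8.33% of all genes. Another 2 were lower (Hsph1 and Dnajc28), beside 5.98%. At an unadjusted p of 0.05, 13 passed (19.1%), beside 28.6% of all genes, and this background applies to each unadjusted count below. By limma-voom 5 were called, beside 14.1% of all genes, and by DESeq2 6, beside 16%, of which the additional gene was Hspa4l. The groups did not overlap for 8 genes (11.8%), beside 17.4% of all genes: 4 lay higher under C3 KO (9.65% of all genes), the called ones and Dnajc5, and 4 lower (7.72% of all genes), the called ones with Dnaja2 and Dnajc14. Dnajc5, Dnaja2 and Dnajc14 did not pass the test. The median log2 difference was -0.01 over the 68 genes and 0.00 over all genes, with 32 of the 68 on the positive side. The median size of the difference, whatever its sign, was 0.07 log2 units, beside 0.12 over all genes tested and 0.10 over the 10986 genes of at least 10 CPM.

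The intervals of the fit without covariates limit the difference between these labelled libraries only, not a difference due to genotype. With the Y-linked level as a covariate, some values fell outside them. The log2 difference of Hspa1a was then 0.706, beside an interval of -0.223 to 0.658. That of Dnajc7 was -0.103, beside an interval of -0.0947 to 0.115. Of the 63 genes not called, 47 had a 95% confidence interval lying wholly within a 1.2-fold change either way, and 60 within 1.5-fold. The 3 others were Hspa1a, Hspa1b and Hspb8, all below 4 CPM, and their intervals lay within 2-fold. Replicates were tight: among the 61 chaperone genes of at least 10 CPM the median coefficient of variation was 4.92% under WT and 4.04% under C3 KO, beside 6.14% and 6.00% for all genes at that level. The forest plot gives every gene with its interval.

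**Figure D2:**
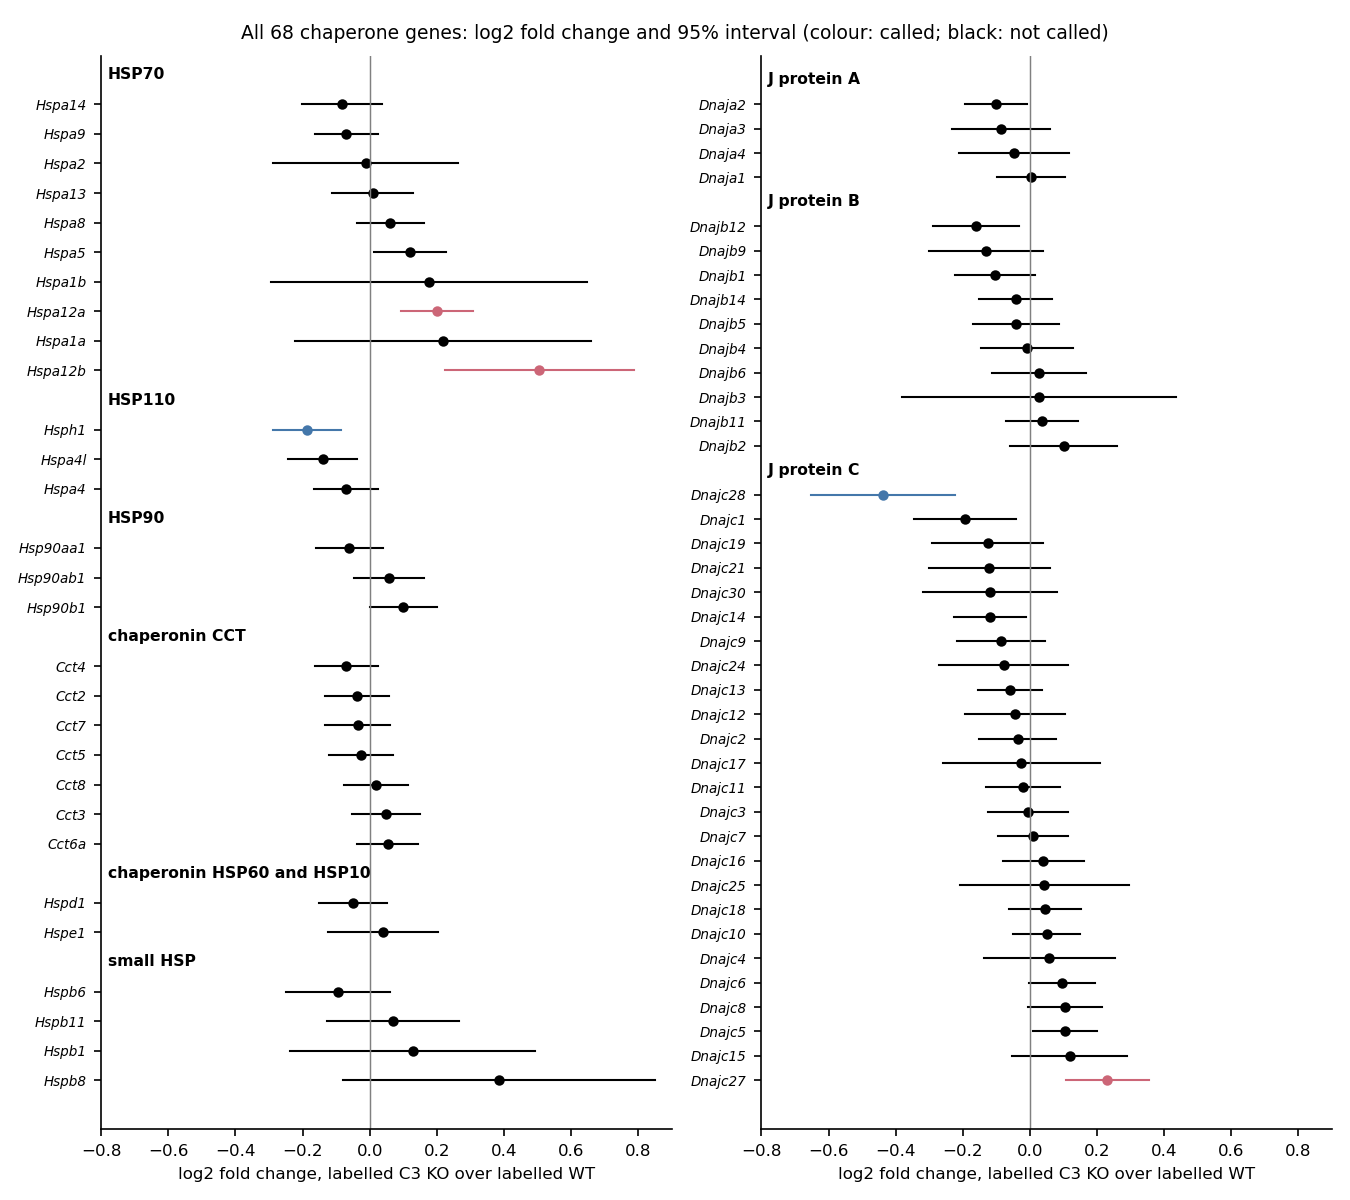
Log2 difference (labelled C3 KO minus labelled WT) of each of the 68 genes from edgeR, with its 95% confidence interval, by class. Most intervals cross 0. The 5 called genes are coloured, red for higher and blue for lower, and the widest intervals belong to the genes with few reads, such as Hspa1a, Hspa1b and Hspb8.

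The HSP70 class held 2 of the called genes, both from its divergent branch, whose proteins have an HSP70 ATPase domain but lack the usual substrate-binding part. Hspa12b, described mainly in endothelial cells, gave 9.89, 7.74, 9.83 and 10.5 CPM in the WT libraries and 11.8, 10.7, 15.4 and 16.1 CPM in the C3 KO libraries. All the C3 KO values lay above all the WT values, though the lowest of the first and the highest of the second were close. The log2 difference was 0.50 ± 0.14 (SE), or 1.42-fold, with an edgeR adjusted p of 0.0153. Among 7 endothelial markers 1 was called by edgeR: Tek, a receptor of the same cells, with 9.46 ± 1.36 CPM under WT and 13.4 ± 2.37 CPM under C3 KO (SD, n = 4 each). Of the 7, 5 were on the positive side (median log2 difference 0.09), and 2, Tek and Emcn (0.53, edgeR adjusted p = 0.0851), had an unadjusted p under 0.05, both higher. Their sum ran from 341 to 395 CPM under WT and from 310 to 376 CPM under C3 KO, and most of it was Kdr, at 260.0 ± 34.7 and 232 ± 26.1 CPM, which was on the lower side. The part of endothelial content in the Hspa12b difference was not tested.

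Hspa12a, the relative of Hspa12b known from brain, gave 177, 153, 171 and 179 CPM under WT and 191, 186, 206 and 199 CPM under C3 KO. WT replicate 2 was lowest, and the groups did not overlap. The log2 difference was 0.20 ± 0.05 (SE), or 1.15-fold, with an edgeR adjusted p of 0.0118. Its annotated exons share 166 bases with those of Eno4 on the opposite strand, and no source used here says whether reads were counted by strand. Both genes lost the call without WT replicate 2, without C3 KO replicate 3 or without C3 KO replicate 4: the edgeR adjusted p was then 0.0685, 0.0616 and 0.0523 for Hspa12a and 0.0615, 0.0623 and 0.0805 for Hspa12b.

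The other 8 HSP70 genes did not pass the test, with log2 differences from -0.08 to 0.22. Hspa8 was level across libraries, at 424, 429.6, 436 and 384 CPM under WT and 423, 450.4, 440.0 and 433 CPM under C3 KO (log2 difference 0.06 ± 0.05, edgeR adjusted p = 0.434). Hspa1a gave 3.79, 2.33, 2.18 and 3.86 CPM under WT and 3.16, 3.80, 3.84 and 3.35 CPM under C3 KO (edgeR adjusted p = 0.547). Hspa1b gave 2.92, 2.56, 1.86 and 2.60 CPM under WT and 2.24, 3.38, 3.27 and 2.33 CPM under C3 KO (edgeR adjusted p = 0.665). The groups overlapped for both of these inducible genes, which encode nearly the same protein. Of the 50-base stretches of the longest Hspa1a transcript, 66.3% occur in other annotated genes, mostly in Hspa1b. For Hspa1b 62.3% do, mostly in Hspa1a, and for Hspa8 52.7% do, in gene models such as Gm15459 and Gm26825. The levels of all 3 thus depend on how such reads were counted. With that limit, Hspa8 stood 88.6 times above Hspa1a and 105 times above Hspa1b per length.

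HSP110 was the class in which every gene was on the lower side, with a median log2 difference of -0.14 over 3 genes, of which 1 was called. Hsph1, the heat-inducible HSP110 whose promoter element is shown above, gave 115, 119.9, 111 and 113 CPM under WT and 100.4, 96.7, 104 and 102 CPM under C3 KO. Every C3 KO library lay below every WT library. The log2 difference was -0.19 ± 0.05 (SE), or 1.14-fold lower under C3 KO, with an edgeR adjusted p of 0.0127, and the gene kept its call in 8 of 8 fits that left out a library. Hspa4l, the relative best known from testis, gave 305, 318, 296 and 275 CPM under WT and 284, 276, 264 and 259 CPM under C3 KO. The groups overlapped through WT replicate 4, and the log2 difference of -0.14 ± 0.05 missed the threshold (edgeR adjusted p = 0.0610), but DESeq2 called it (adjusted p = 0.0385), as did edgeR without WT replicate 4 (adjusted p = 0.0207). Hspa4, the constitutive member and the highest of the class per length at 50.6 RPKM, gave 289, 287, 273 and 297 CPM under WT and 267, 268, 288 and 267 CPM under C3 KO (edgeR adjusted p = 0.323). C3 KO replicate 3 lay among the WT values.

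**Figure D3:**
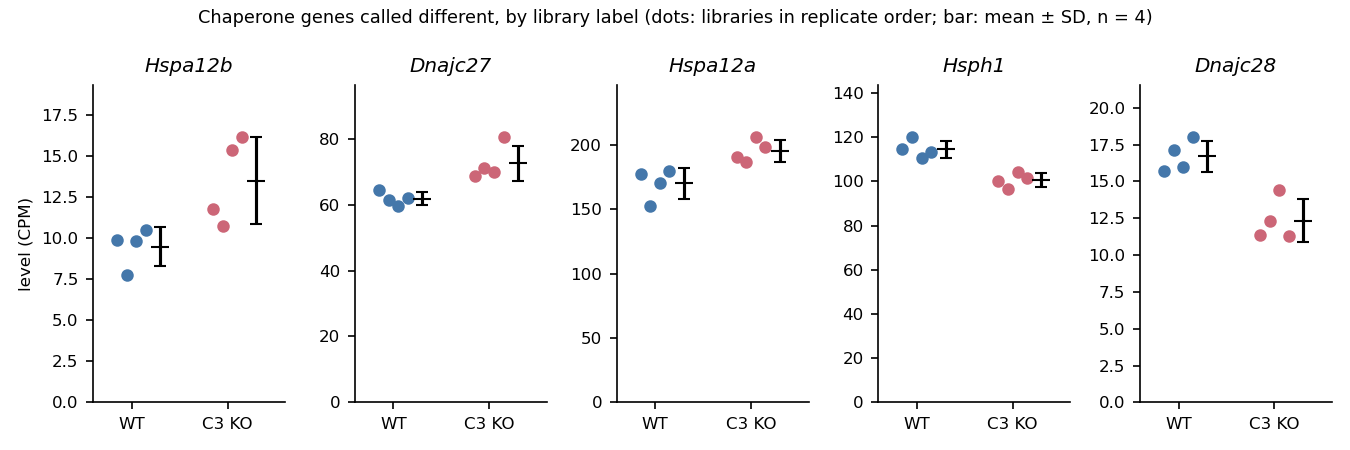
CPM in each library of the 5 called genes, by label, on axes that start at 0, with the mean and SD of each group beside the dots. In each panel the 4 libraries labelled C3 KO lie on 1 side of the 4 labelled WT: above for Hspa12b, Hspa12a and Dnajc27, and below for Hsph1 and Dnajc28.

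HSP90 genes gave 0 calls of 3 by edgeR, DESeq2 and limma-voom, with 1 at an unadjusted p of 0.05. Hsp90ab1 gave 1405, 1249.6, 1382 and 1385 CPM under WT and 1388, 1361, 1480.1 and 1410.0 CPM under C3 KO, with WT replicate 2 low (log2 difference 0.06 ± 0.05, edgeR adjusted p = 0.504). Hsp90aa1, its inducible partner, ran from 498 to 565 CPM under WT and from 511 to 533 CPM under C3 KO (log2 difference -0.06 ± 0.05, edgeR adjusted p = 0.447). The ratio of their counts ran from 2.26 to 2.78 in the WT libraries and from 2.61 to 2.82 in the C3 KO libraries, so Hsp90ab1 was the main form in all 8. For Hsp90aa1, 58.5% of 50-base stretches recur in other annotated genes, mostly unnamed gene models.

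In the ER, 0 of 14 genes were called by edgeR, DESeq2 or limma-voom, and 5 had an unadjusted p under 0.05, some higher and some lower. Hsp90b1 (GRP94) gave 689, 740.0, 719 and 668 CPM under WT and 794, 741, 739 and 746 CPM under C3 KO (log2 difference 0.10 ± 0.05, edgeR adjusted p = 0.173). Hspa5 gave 527, 557, 510.4 and 461 CPM under WT and 575, 559, 552 and 549.5 CPM under C3 KO (log2 difference 0.12 ± 0.05, edgeR adjusted p = 0.130). The groups overlapped through WT replicate 2, and WT replicate 4 was the lowest library for both. WT replicate 4 was also the lowest of the 8 for 8 of the 14 ER genes, and for 16 of all 68 genes. Without WT replicate 4, the log2 difference of Hspa5 was 0.07 and that of Hsp90b1 also 0.07. Dnajc3, which restrains the ER stress kinase PERK and has the third printed ER stress element, had a log2 difference of -0.01 (edgeR adjusted p = 0.956). Dnajb9, an ER J protein that is a target of the ER stress response, had one of -0.13 (edgeR adjusted p = 0.309), and Dnajb11, the J partner of Hspa5 for newly made proteins, one of 0.04 (edgeR adjusted p = 0.708). On the lower side were Dnajc1 (-0.19, edgeR adjusted p = 0.0798), Dnajb12 (-0.16, edgeR adjusted p = 0.0869) and Dnajc14 (-0.12, edgeR adjusted p = 0.128). Of the 3 genes with the printed element, 2 were on the positive side and Dnajc3 was at about 0.

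Of 19 other ER stress genes outside the chaperone rule, 2 were higher and 0 lower by edgeR, with a median log2 difference of 0.01 and 10 of 19 on the positive side. At an unadjusted p of 0.05, 5 passed (26.3%), 4 of them higher. The groups did not overlap for 4 of the 19, all higher: Pdia6, Calr, Canx (calnexin) and Sel1l. Over all genes tested, 17.4% did not overlap, and 9.65% lay higher. The summed level of all 19 genes ran from 2711 to 2832.3 CPM under WT and from 2833.6 to 2932 CPM under C3 KO, with no test, so the groups barely missed overlap. Calr and Canx (499 ± 19.8 and 543 ± 13.5 CPM, SD, n = 4 each) were the most counted of the 19. Such sums also did not overlap for other lists. Heat shock factors and partners ran from 357 to 377 CPM under WT and from 392 to 405 CPM under C3 KO, and the mitochondrial list below was lower. Pdia6, a disulfide isomerase, was 173 ± 7.62 CPM under WT and 201 ± 9.45 CPM under C3 KO (SD, n = 4 each; log2 difference 0.22 ± 0.05, edgeR adjusted p = 0.00377). Calr, the lectin chaperone calreticulin, was 550.4 ± 5.82 and 606 ± 18.1 CPM (log2 difference 0.14 ± 0.04, edgeR adjusted p = 0.0373), and missed the threshold when any single library was left out, with adjusted p from 0.0515 to 0.118, as well as with the replicate block (adjusted p = 0.0524), with no expression filter (0.0555) and in both limma fits on RPKM (0.0631 and 0.0632).

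The subunits of the cytosolic chaperonin differed little between the labels. By edgeR, DESeq2 and limma-voom 0 of 7 CCT subunits were called, and 0 had an unadjusted p under 0.05. Their log2 differences ran from -0.07 (Cct4) to 0.05 (Cct6a), and every 95% interval lay between -0.16 and 0.15. Cct6a, the highest per length, gave 267, 289, 269.6 and 273 CPM under WT and 285, 281, 288 and 286 CPM under C3 KO. The subunits enter the complex in equal number, and counts per subunit were close, from 241 to 343 CPM over all subunits and libraries, while levels per length ran from 58.0 RPKM (Cct3) to 175 RPKM (Cct6a). Within a group the CCT genes had a median coefficient of variation of 4.69% under WT and 2.29% under C3 KO. The remaining subunit, Tcp1, whose symbol the rule does not take, was 354 ± 14.8 CPM under WT and 368 ± 9.96 CPM under C3 KO (edgeR adjusted p = 0.494). Of Tcp1 and 11 helpers of the chaperonin, such as prefoldin subunits, 0 were called by edgeR, DESeq2 or limma-voom, with 3 at an unadjusted p of 0.05.

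In mitochondria 0 of 8 genes were called by edgeR, DESeq2 or limma-voom and 0 had an unadjusted p under 0.05, with 6 of 8 on the lower side and a median log2 difference of -0.06. Hspd1 gave 108, 117, 114 and 109 CPM under WT and 106, 108, 106 and 112 CPM under C3 KO (log2 difference -0.05 ± 0.05, edgeR adjusted p = 0.538). Hspe1 gave 30.2, 30.4, 31.1 and 27.1 CPM under WT and 34.5, 29.0, 27.8 and 30.9 CPM under C3 KO (log2 difference 0.04 ± 0.08, edgeR adjusted p = 0.789). The pair that shares the printed promoter thus showed no called difference, and per length Hspd1 stood 2.03 times above Hspe1. For Hspd1, 44.8% of 50-base stretches recur in other annotated genes, mostly a pseudogene. Hspa9, the HSP70 of the mitochondrial import motor, had a log2 difference of -0.07 ± 0.05 (edgeR adjusted p = 0.332). Of 14 mitochondrial proteases and import chaperones outside the rule, 0 were called by edgeR, DESeq2 or limma-voom and 0 had an unadjusted p under 0.05. Of the 14, 11 were on the lower side. Their summed level ran from 897.4 to 945.6 CPM under WT and from 873.5 to 895.7 CPM under C3 KO, without overlap but by little and with no test.

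J proteins made up most of the genes, and 2 of 39 were called, both from the large C group, whose members have little in common beyond the J domain. Dnajc28, a little-studied member, gave 15.7, 17.1, 16.0 and 18.0 CPM under WT and 11.4, 12.3, 14.4 and 11.3 CPM under C3 KO. Every C3 KO library was below every WT library. The log2 difference was -0.44 ± 0.10 (SE), or 1.35-fold lower under C3 KO, with an edgeR adjusted p of 0.00637, the smallest among the 68 genes, and the call held in 8 of 8 fits that left out a library. Dnajc27, which carries a Rab-like GTPase domain ahead of its J domain, gave 64.3, 61.2, 59.6 and 61.9 CPM under WT and 68.5, 71.1, 70.0 and 80.3 CPM under C3 KO. C3 KO replicate 4 was the highest, and the groups did not overlap. The log2 difference was 0.23 ± 0.06 (SE), or 1.17-fold, with an edgeR adjusted p of 0.0111, which became 0.0780 without C3 KO replicate 4.

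The A and B groups, whose members are built most like the bacterial J protein and include the main partners of cytosolic HSP70, gave 0 calls of 4 and 0 of 10 by edgeR, DESeq2 and limma-voom, with 1 gene in each at an unadjusted p of 0.05. Dnaja2, the highest J protein per length at 73.2 RPKM, gave 221, 211, 221 and 207 CPM under WT and 196, 195, 205 and 206 CPM under C3 KO (log2 difference -0.10 ± 0.04, edgeR adjusted p = 0.136). Its groups did not overlap, but by little. Dnajb1, the heat-inducible partner of HSP70, gave 69.3, 76.0, 71.3 and 80.2 CPM under WT and 67.0, 67.2, 71.6 and 70.2 CPM under C3 KO (edgeR adjusted p = 0.243). Dnajc5, the cysteine string protein of synaptic vesicles, gave 479, 449.7, 469.8 and 478 CPM under WT and 481, 517, 503 and 517 CPM under C3 KO (log2 difference 0.11 ± 0.05, edgeR adjusted p = 0.130). It was the second highest J protein per length, at 70.0 RPKM. The 3 J proteins of vesicles and endosomes, Dnajc5, Dnajc6 (auxilin, which uncoats clathrin vesicles) and Dnajc13 (of endosomes), had log2 differences of 0.11, 0.10 and -0.06.

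Small heat shock proteins ranked 42 or lower among the 68 genes by RPKM. They gave 0 calls of 4 by edgeR, DESeq2 and limma-voom, with 0 at an unadjusted p of 0.05. Hspb6, the highest per length at 13.7 RPKM, gave 34.8, 33.7, 29.7 and 31.7 CPM under WT and 31.8, 31.6, 27.9 and 30.4 CPM under C3 KO (edgeR adjusted p = 0.444). Hspb8, which works with the cochaperone BAG3 in autophagy, gave 2.26, 1.92, 2.92 and 2.66 CPM under WT and 2.55, 2.55, 3.95 and 3.75 CPM under C3 KO. The log2 difference of 0.38 ± 0.22 was the third largest in size of the 68, but the groups overlapped (edgeR adjusted p = 0.270). Hspb1 (HSP25) stayed between 3.70 and 6.09 CPM in all libraries (edgeR adjusted p = 0.688). Hspb11, a subunit of ciliary transport despite its symbol, had a log2 difference of 0.07 (edgeR adjusted p = 0.684). These proteins are abundant in lens and muscle: summed lens markers ran from 4.07 to 5.91 CPM under WT and from 3.72 to 5.45 CPM under C3 KO, and skeletal muscle markers from 8.51 to 10.4 CPM and from 8.07 to 9.77 CPM. Only 3 of 8 lens markers were listed, and 1 of them, the crystallin Cryba1, was lower by edgeR, at 1.14 ± 0.529 CPM under WT and 0.383 ± 0.219 CPM under C3 KO (SD, n = 4 each; log2 difference -1.51, adjusted p = 0.0285). Cryab and Cryaa are lens crystallins that, unlike Cryba1, belong to the small heat shock proteins under other symbols. Cryab had an edgeR adjusted p of 0.741. Cryaa was too low for the edgeR filter, at 0.102, 1.98, 1.01 and 2.96 CPM under WT and 0.255, 0.416, 0.169 and 0.227 CPM under C3 KO, and the groups overlapped. DESeq2, which tested it, called it lower under C3 KO, the direction of Cryba1, and the part of lens RNA in these values was not tested.

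Summed by class, the CPM of 3 of 9 classes did not overlap between the groups, as the plot of class sums shows. The sum of the HSP70 genes was 1534, 1553, 1537 and 1428 CPM under WT and 1582, 1604, 1599 and 1583 CPM under C3 KO, a mean 5.23% higher. The sum of the HSP110 genes was 709, 724, 679.9 and 685 CPM under WT and 652, 640.5, 657 and 628 CPM under C3 KO, a mean 7.94% lower. The sum of the C group of J proteins was 2127, 2138, 2168 and 2087 CPM under WT and 2170, 2197, 2172 and 2172 CPM under C3 KO, a mean 2.24% higher. Gene by gene, 14 of these 25 were on the lower side, with a median log2 difference of -0.02. These sums are dominated by the most counted genes of each class, were given no test, and were looked at after the values were seen.

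**Figure D4:**
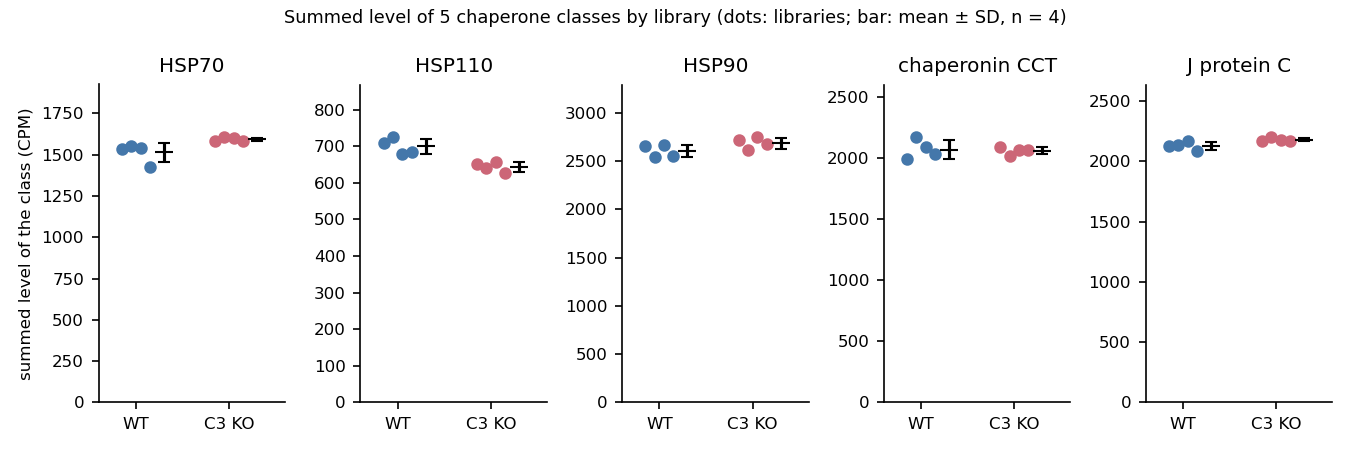
Summed CPM of 5 chaperone classes in each library (dots), on axes that start at 0, with the mean and SD of each group. The C3 KO libraries lie above all WT libraries for HSP70 and J protein C and below all for HSP110, by small distances on this scale, and overlap with them for HSP90 and CCT.

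A heat shock response is known to raise many of these genes together, and whether 1 took place here was not tested. The list of its genes held Hspa1a, Hspa1b, Hspa8, Hsph1, Hsp90aa1, Hsp90ab1, Hspb1, Hspd1, Hspe1, Dnaja1, Dnajb1, Hspa4l and Dnajb4. It thus takes in Hspa8 and Hsp90ab1, described above as constitutive. These 13 genes gave 0 higher and 1 lower (Hsph1) by edgeR, with 2 at an unadjusted p of 0.05. Their median log2 difference was 0.00, beside 0.00 over all genes. The number of these 13 genes above their mean in the WT libraries was 9, 9, 6 and 6 in WT replicates 1 to 4 and 6, 5, 6 and 8 in C3 KO replicates 1 to 4, and the heat map gives each value. Hsf1, the main heat shock factor, was 32.3 ± 0.962 CPM under WT and 33.0 ± 1.27 CPM under C3 KO (edgeR adjusted p = 0.824), and Hsf2 had a log2 difference of -0.13 (edgeR adjusted p = 0.165). Hsbp1, which binds heat shock factor trimers, was 259 ± 6.33 CPM under WT and 290.5 ± 7.53 CPM under C3 KO (SD, n = 4 each; log2 difference 0.17 ± 0.04, edgeR adjusted p = 0.0132). Its adjusted p was 0.0590 without WT replicate 3, 0.0504 without WT replicate 4 and 0.0719 without C3 KO replicate 4.

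**Figure D5:**
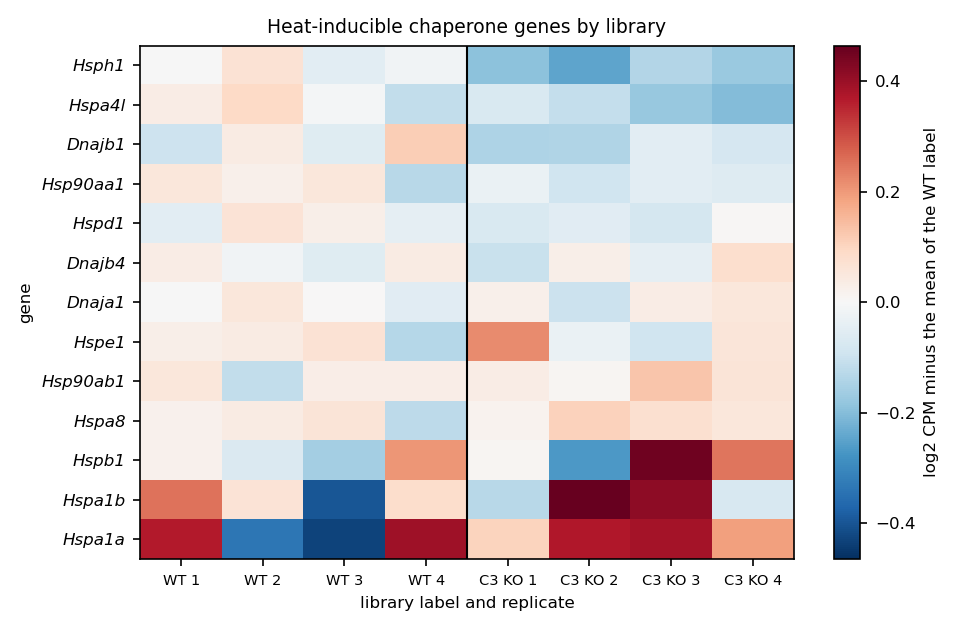
Each of the 13 listed genes of the heat shock factor response in each library, as log2 CPM minus the mean of the libraries labelled WT. Every library holds genes above and genes below their WT mean. Hsph1 is below in all 4 libraries labelled C3 KO, and the strongest colours belong to Hspa1a, Hspa1b and Hspb1, which have few reads.

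Calls among the partner proteins of HSP70 and HSP90 stand beside 14.3% of all genes tested, and genes without overlap beside 17.4%. Of 17 HSP70 cochaperones outside the rule, 2 had an unadjusted p under 0.05 (11.8%), and the groups did not overlap for 1. By edgeR 1 was called lower and 0 higher, with a median log2 difference of 0.00 over the 17. It was Bag6, which guides tail-anchored and mislocalised proteins, at 328 ± 3.41 CPM under WT and 296 ± 11.7 CPM under C3 KO (SD, n = 4 each; log2 difference -0.15 ± 0.04, edgeR adjusted p = 0.0265). It lost the call without WT replicate 3 (edgeR adjusted p = 0.0539) or without C3 KO replicate 1, 3 or 4 (0.0862, 0.0696 and 0.0592). Of 20 HSP90 cochaperones, 1 was higher and 1 lower, with a median of -0.05. At an unadjusted p of 0.05, 4 passed (20%), and the groups did not overlap for 3. Unc45a, a chaperone of myosin that binds HSP90, was 73.8 ± 4.39 CPM under WT and 90.9 ± 3.20 CPM under C3 KO (log2 difference 0.30 ± 0.06, edgeR adjusted p = 0.000838). Stip1 (HOP), which carries clients from HSP70 to HSP90, was 189 ± 6.00 and 169 ± 5.45 CPM (log2 difference -0.16 ± 0.05, edgeR adjusted p = 0.0192). Both kept their calls when any single library was left out, and for both the groups did not overlap. Ttc4 was without overlap too but missed the threshold (log2 difference 0.16, edgeR adjusted p = 0.0536), and passed it with upper quartile scaling (0.0496). Ptges3 was on the lower side (log2 difference -0.17, edgeR adjusted p = 0.0806), with overlap.

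The 5 called chaperone genes were also fitted with a term for other differences among the libraries. With the mean level of the Y-linked genes as a covariate, which has a correlation of 0.732 with the label, none of the 5 passed: the edgeR adjusted p was 0.0762 for Dnajc27, 0.120 for Hspa12a, 0.128 for Dnajc28, 0.186 for Hspa12b and 0.271 for Hsph1. Their log2 differences in that fit were 0.29, 0.23, -0.43, 0.52 and -0.16. With 1 surrogate variable as a covariate, none passed either, at adjusted p from 0.113 (Hsph1) to 0.358 (Hspa12b). Their log2 differences were then 0.18 for Dnajc27, 0.16 for Hspa12a, -0.35 for Dnajc28, 0.35 for Hspa12b and -0.19 for Hsph1, so they kept most of their size while losing the call. Of the 6 called genes of the related lists, Hsbp1, Bag6, Unc45a, Stip1, Pdia6 and Calr, none passed with the Y-linked covariate (adjusted p from 0.118 to 0.373), at log2 differences of 0.19, -0.15, 0.24, -0.12, 0.16 and 0.15, and Stip1 alone passed with the surrogate variable. Without WT replicate 3 the Y-linked level separates the labels, low under WT and high under C3 KO, and the 2 cannot be told apart. The edgeR adjusted p of the 5 chaperone genes was then 0.0120 (Dnajc28) to 0.0486 (Dnajc27). In the longest annotated transcript of each of the 5 chaperone genes, no 50-base stretch occurs in another annotated gene. Exons of Hspa12a outside that transcript were not searched, and its exons share 166 bases with those of Eno4, as given above. None of the 68 genes lies within 10 Mb of C3 on chromosome 17.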

How the data were processed

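Polyadenylated retinal RNA was sequenced from 4 libraries labelled WT and 4 labelled C3 KO. The deposited count table gives reads per gene, and a second deposited table gives log2 RPKM; STAR and HTSeq and the builds mm9 and NCBIM37 are named per the submitters' processing notes, without versions. The kit was a directional one, per the labels' protocols, and no source used here says whether reads were counted by strand. Counts were fitted with edgeR 4.0.16 (R 4.3.3): TMM scaling, the default expression filter (15850 of 16109 genes kept), robust quasi-likelihood F test, and Benjamini-Hochberg adjustment over all genes tested, with a call at 0.05. CPM use the TMM-scaled library sizes. Intervals of 95% use the standard error taken from the F statistic. Alternatives were RLE and upper quartile scaling, DESeq2 1.42.0, limma 3.58.1 (voom, and the deposited log2 values as log2(RPKM + 1) or log2(RPKM + 0.1)), other filters, non-robust dispersion, a replicate block, covariates (sva 3.50.0) and leaving out each library. The fit was tested on simulated data. No 2 libraries of the same label agreed within sampling noise: the lowest chi-square per degree of freedom was 3.72. Libraries of different labels were not compared in this way. Exons and the 50-base stretches of each gene's longest transcript were read from GENCODE M21, and promoters from RefSeq.

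The members and lists were chosen with earlier results of these data known. The genes named are C3, each called member, the highest member of each class by RPKM and the listed genes of the heat shock factor response. Up to 4 genes of smallest p in each further list were added. Other genes named were chosen after their values were seen.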

Additional observations from a re-analysis of the deposited data

Results flagged for a closer look

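Among 24 genes checked for a library far from the others of its group, in 48 groups of 4, 2 values stood out; chance flags about 1 in 20 such groups. Hspa4, the constitutive HSP110, was 288.3 CPM in C3 KO replicate 3, while the other libraries labelled C3 KO lay between 266.8 and 267.6 CPM. Hsp90ab1, the constitutive HSP90, was 1249.6 CPM in WT replicate 2, while the other libraries labelled WT lay between 1382 and 1405 CPM.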

How the results depend on the processing

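The number of genes called among all tested was 2269. It was 1490 and 1479 in the limma fits on log2(RPKM + 1) and log2(RPKM + 0.1), 530 with the Y-linked level as a covariate, 424 with 1 surrogate variable, and 1305 to 2543 when each library was left out in turn, lowest without C3 KO replicate 4. Chaperone genes called higher numbered 3; the count was 1 in both RPKM fits (Hspa12a and Hspa12b were lost), 0 with either covariate, and 0 to 3 with a library left out: 1 without WT replicate 2 or C3 KO replicate 3, and 0 without C3 KO replicate 4. Chaperone genes called lower numbered 2; the count was 0 with either covariate and 2 to 3 with a library left out. The covariates have correlations of 0.732 and 0.677 with the label, and the cause of the lost calls was not tested. Each of the 5 called chaperone genes kept its direction under all 20 alternatives. For the 49 named genes, 921 of 980 values under an alternative stayed called or stayed uncalled, 51 lost the call and 8 gained it. In 0 values was a gene called in the opposite direction. Differences of uncalled genes near 0 did change sign in some fits. Hspb6 went from -0.09 to 0.03 with the Y-linked covariate, and Hspe1 from 0.04 to -0.03 without C3 KO replicate 1. Scaling moved the median log2 difference of all genes by less than 0.01.

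Replicate numbers did not pair the libraries: deviations of same-numbered libraries had correlations from -0.06 to 0.09. With the replicate number as a block, 2400 genes were called, with 3 chaperone genes higher and 3 lower (Hspa4l was added).

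Counting depth limits the 7 chaperone genes with a mean below 10 CPM, Hspa1a, Hspa1b, Hspa2, Hspb1, Hspb8, Dnajb3 and Dnajc25, and the called gene Hspa12b, at 9.49 CPM under WT.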
